A study of Rattus norvegicus with 6 samples.

Results

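Chondrocytes that leave the resting state of articular cartilage can enlarge, become hypertrophic and let their matrix mineralize. The transcription factors RUNX2, Osterix (encoded by Sp7) and MEF2C drive this course, and Indian hedgehog (Ihh) and the receptor for parathyroid hormone-related protein (Pth1r) set its pace in a feedback loop. Mineral forms where phosphate is freed and its inhibitor pyrophosphate is removed, and the same genes are often followed in osteoarthritic cartilage. Here 10 genes of this course were followed in the 18420 genes of the deposited table: Runx2, Sp7, Mef2c, Ihh, Pth1r, Alpl, Enpp1, Ank, Ibsp and Spp1. They were chosen by name as hypertrophy or mineralization genes, with earlier results of these data known. The table lists 9 of them under these symbols and Ank as Ankh (Entrez gene 114506), of which Ank is an older symbol in the RefSeq gene table.

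RNA-seq was performed on cultured primary chondrocytes of wild-type male Sprague-Dawley rats of 180 to 220 g, used at the third passage. The TNF-α group (n = 3) had 6 h of TNF-α at 10 ng/mL. The TNF-α+NFL group (n = 3) had the same dose and then Nanofat lysate (NFL), the freeze–thaw lysate of cells from abdominal fat, for another 24 h. Both groups had therefore met TNF-α, no library without TNF-α was analysed here, and the labelled times, 6 h and 30 h, differ with the groups, so time and NFL cannot be told apart. The study describes its replicates as biological, but the labels do not say whether they came from separate rats, so p-values measure the spread between these samples.

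The libraries held between 19344893 and 19725135 estimated counts. The first principal component, with 26.1% of the variance, ran from TNF-α replicate 1 (-21.2) to TNF-α replicate 3 (22.7), and the other 4 libraries lay from -5.93 to 6.96. The cells were checked against defining cartilage genes. Levels are given in TPM, a share of all transcripts that is scaled to transcript length. Col2a1, the main collagen of cartilage, stood at 7.72 ± 0.551 TPM (SD, n = 3) with TNF-α and 9.23 ± 0.475 TPM (SD, n = 3) with TNF-α+NFL, while Col1a1, a collagen of bone and fibrous tissue, stood at 1220 ± 154 (SD, n = 3) and 1310 ± 41.1 (SD, n = 3). Acan lay between 4.47 and 6.12 TPM and Sox9 between 3.93 and 5.07 TPM over the 6 libraries, so these 3 defining cartilage genes were present at low levels. Col10a1, the collagen that defines hypertrophic cartilage, lay between 0.09 and 0.22 TPM. In summed TPM, the 16 cartilage genes held 459.1 to 593.7 per library, of which Col11a1 alone made up 87.8% to 89.8%, and the 6 synovial markers held 3942 to 4341. Most of the latter was Thy1, which marks fibroblasts beneath the synovial lining, and Prg4 (lubricin), which both the lining and the superficial zone of articular cartilage make, so the sum does not measure synovial cells alone. In bulk RNA, fewer cells of a type and less RNA per cell cannot be told apart.

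The 10 genes differed from each other far more than the groups did. Spp1, which encodes the secreted phosphoprotein osteopontin, was the most abundant by a wide margin, with 89.9% of the summed TPM of the 10 genes in the TNF-α group and 88.7% in the TNF-α+NFL group. Enpp1 and Ankh, both of which raise pyrophosphate outside the cell, followed, then Pth1r, Mef2c and Runx2, then Alpl and Ibsp, and Sp7 and Ihh lay close to 0. By mean TPM over the 6 libraries the order was Spp1 (1228), Enpp1 (100.5), Ankh (26.08), Pth1r (7.31), Mef2c (6.11), Runx2 (5.53), Alpl (0.752), Ibsp (0.358), Sp7 (0.0283) and Ihh (0.0233). Neighbours in this order were separate in every library for Spp1 over Enpp1, Enpp1 over Ankh, Ankh over Pth1r, Runx2 over Alpl and Ibsp over Sp7. The ranges of Pth1r and Mef2c overlapped, as did those of Mef2c and Runx2, of Alpl and Ibsp and of Sp7 and Ihh. Among all 18420 genes, Spp1 stood at percentile 99.4 by mean TPM, Runx2 at percentile 46.5 and Ihh at percentile 9.42.

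**Figure D1:**
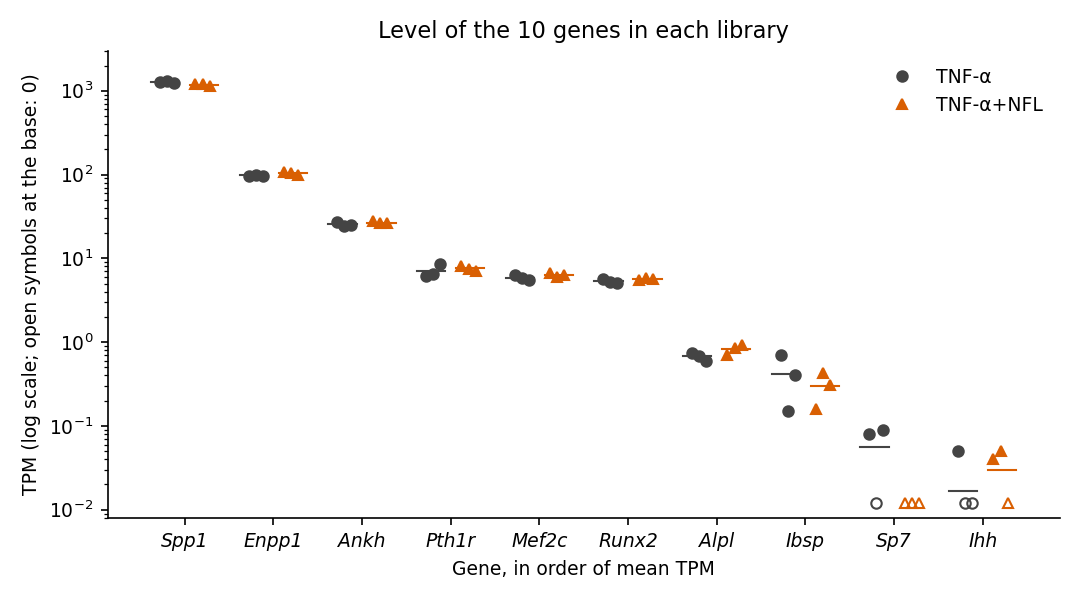
Level of the 10 genes in each library, in TPM on a log axis, with circles for the 3 TNF-α libraries, triangles for the 3 TNF-α+NFL libraries and a line at each group mean; open symbols at the base are libraries at 0. The genes run from Spp1 at 1149.71 to 1304.51 TPM down to Sp7 and Ihh, which are at 0 in 4 and 3 of the 6 libraries.

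The groups were compared on counts with the quasi-likelihood test of edgeR, with p-values adjusted by Benjamini-Hochberg over the 13250 genes that passed a filter on low counts. Of the 10 genes, 7 passed this filter and 3 (Sp7, Ihh and Ibsp) did not. None of the 7 passed an adjusted p of 0.05 in this test, where 0.611% of all tested genes did. At an unadjusted p under 0.05 there was 1 of the 7, Spp1, against 11.1% of all tested genes. limma-voom also called 0 of the 7. The DESeq2 Wald test called 0 of the 3 to which it gave an adjusted p (Spp1, Enpp1 and Ankh) and gave none to the other 4. Differences are log2 fold changes of TNF-α+NFL against TNF-α on the scale of normalized counts. They were above 0 for 6 of the 7 genes and below 0 for Spp1, with a median of 0.067 against -0.0035 over all tested genes. The 95% interval stayed within a 2-fold change in either direction for each of the 7 genes, and within 0.25 on the log2 scale for 5 of them (Spp1, Enpp1, Ankh, Mef2c and Runx2). With 3 samples against 3, the exact permutation test of a single gene (two-sided) cannot go below 0.10.

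**Figure D2:**
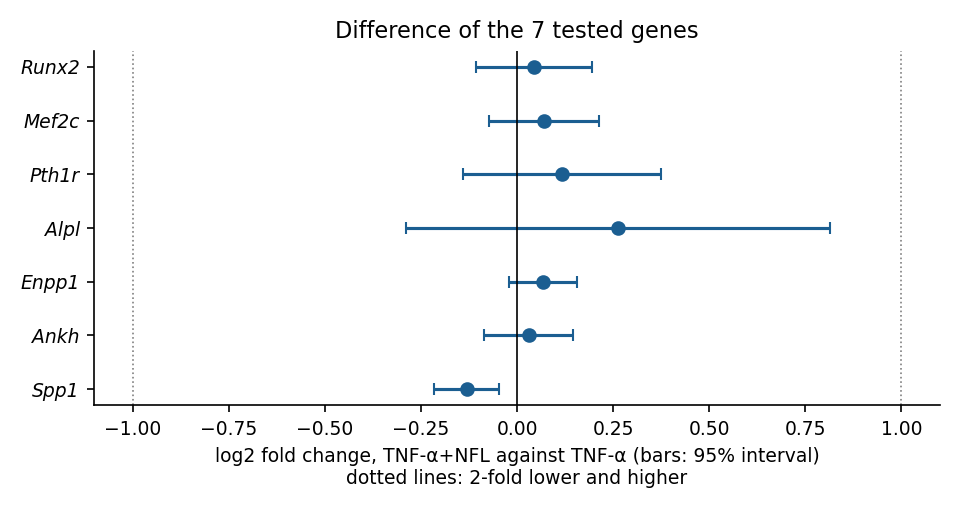
Log2 fold change of TNF-α+NFL against TNF-α for the 7 tested genes, with the 95% interval as a bar and dotted lines at a 2-fold change. The bars of 6 genes cross 0 and that of Spp1 runs from -0.22 to -0.046.

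The transcription factors come first. Runx2 (Entrez gene 367218) encodes the factor that switches on hypertrophic and bone genes. Its level was 5.72, 5.26 and 5.14 TPM with TNF-α, in the order of replicates 1, 2 and 3, and 5.52, 5.86 and 5.70 TPM with TNF-α+NFL. The groups overlapped, and each library held between 288.01 and 308.62 estimated counts. The log2 fold change was 0.044 (95% interval -0.11 to 0.19, edgeR quasi-likelihood adjusted p = 0.89). Mef2c (Entrez gene 499497) encodes a factor that acts with RUNX2 in hypertrophy and in muscle. Its level was 6.29, 5.87 and 5.54 TPM in the TNF-α group and 6.63, 6.03 and 6.29 TPM in the TNF-α+NFL group, again overlapping. The log2 fold change of Mef2c was 0.071 (95% interval -0.073 to 0.21, edgeR quasi-likelihood adjusted p = 0.77). Sp7 (Entrez gene 300260), which acts downstream of RUNX2 in bone-forming cells, had estimated counts of 2, 0 and 3.01 in the TNF-α group and 0 in each TNF-α+NFL library. These values are at or near the floor of 3 counts per library, so no fold change is given and a difference was not detectable at this depth. The estimated counts of Runx2, and of Pth1r described below, were fractional in 6 of 6 libraries, those of Mef2c in 3 and those of Sp7 in 1. Part of the reads of these genes was therefore assigned by estimation.

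Runx2 starts from a pair of promoters in RefSeq (GRCr8), and the first of them is shown because it holds a hexamer that RUNX proteins bind. It covers the 250 bases before the start, chr9:23664808-23665057 on the plus strand, and capitals mark the match.
Runx2: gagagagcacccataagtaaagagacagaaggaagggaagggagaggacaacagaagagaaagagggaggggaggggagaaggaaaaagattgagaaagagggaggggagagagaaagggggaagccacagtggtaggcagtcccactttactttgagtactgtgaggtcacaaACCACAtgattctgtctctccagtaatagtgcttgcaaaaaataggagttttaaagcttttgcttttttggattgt
The forms TGTGGT (inverted, ACCACA) and also TGCGGT (inverted, ACCGCA) were searched on both strands, and the first base of the match lies at -76 from the start. In windows of this length 1 or more of these was found in 19% of the 33469 promoters of the table. Spp1 held 1 match, shown with its window, and none was found in the second Runx2 promoter or in the windows of Ibsp, Alpl, Pth1r and Ankh. The promoters of Enpp1, Mef2c, Ihh and Sp7 were not analysed here. A match is a description of the letters only, and these RNA levels do not say which of the 2 Runx2 promoters was used.

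The hedgehog and parathyroid hormone-related protein loop was represented by its receptor rather than by its ligands. Pth1r (Entrez gene 56813), the receptor through which that protein delays hypertrophy, stood at 6.11, 6.52 and 8.48 TPM in the TNF-α group and at 8.11, 7.52 and 7.12 TPM in the TNF-α+NFL group. TNF-α replicate 3 was the highest of the 6 libraries and TNF-α replicate 1 the lowest, so the TNF-α group enclosed the other. Its normalized counts varied by 16.4% (coefficient of variation) with TNF-α and by 5.29% with TNF-α+NFL. The log2 fold change was 0.12 (95% interval -0.14 to 0.38, edgeR quasi-likelihood adjusted p = 0.79). It was 0.029 when TNF-α replicate 1 was left out and 0.26 when TNF-α replicate 3 was. Ihh (Entrez gene 84399), the hedgehog ligand of prehypertrophic chondrocytes, had estimated counts of 1, 0 and 0 in the TNF-α group and 1, 1 and 0 in the TNF-α+NFL group. Both groups were under the floor of 3 counts, so no fold change is given. Pthlh, which encodes parathyroid hormone-related protein, had at most 1 count in a library.

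The 3 genes that handle pyrophosphate stood far apart in level. Enpp1 (Entrez gene 85496) makes pyrophosphate outside the cell, Ankh moves it there, and Alpl splits it. Enpp1 was at 96.66, 98.94 and 96.79 TPM in the TNF-α group and at 106.89, 103.67 and 100.07 TPM in the TNF-α+NFL group. In TPM the groups did not overlap, as for 16.6% of all tested genes, whereas in normalized counts (CPM) they did, at 166 ± 4.83 with TNF-α and 174 ± 5.80 with TNF-α+NFL (SD, n = 3 each). The log2 fold change of Enpp1 was 0.067 (95% interval -0.022 to 0.16, edgeR quasi-likelihood adjusted p = 0.60).

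Ankh stood at 26.9, 24.51 and 25.13 TPM in the TNF-α group and at 27.6, 26.12 and 26.22 TPM in the TNF-α+NFL group. The groups overlapped, and the log2 fold change was 0.030 (95% interval -0.086 to 0.15, edgeR quasi-likelihood adjusted p = 0.90). Alpl (Entrez gene 25586), the tissue-nonspecific alkaline phosphatase, stood at 0.74, 0.69 and 0.60 TPM in the TNF-α group and at 0.71, 0.85 and 0.92 TPM in the TNF-α+NFL group. TNF-α+NFL replicate 1 lay within the TNF-α range. With only 15 to 22 counts per library, Alpl had the widest interval of the 7 tested genes, a log2 fold change of 0.26 (95% interval -0.29 to 0.81, edgeR quasi-likelihood adjusted p = 0.79). The TPM of Enpp1 was 145 ± 15.4 times that of Alpl with TNF-α and 127 ± 21.4 times with TNF-α+NFL (SD, n = 3 each) (exact permutation test, two-sided, p = 0.30).

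Spp1 and Ibsp encode acidic phosphoproteins of mineralized tissue, osteopontin and bone sialoprotein, and lie in 1 gene cluster. In the RefSeq table of GRCr8 the order of protein-coding genes there is Spp1, Mepe, Ibsp, Dmp1 and Dspp. Of this cluster, Spp1 alone was abundant: mean TPM over the 6 libraries was 3430 times that of Ibsp, Mepe had at most 2 counts in a library, and Dmp1 had 0 in each library, where 3 counts per library are taken as the floor. Dspp was searched for by symbol and RefSeq synonym and was not found in the deposited table. The 250 bases before the starts of the 2 measured members that gave counts in each library are shown side by side, chr14:5619805-5620054 for Spp1 and chr14:5757243-5757492 for Ibsp, both on the minus strand of GRCr8 from RefSeq. Capitals mark matches to TATAAA (inverted, TTTATA), to the box CCAAT (inverted, ATTGG) and to the RUNX hexamer, which do not share letters here.
Spp1: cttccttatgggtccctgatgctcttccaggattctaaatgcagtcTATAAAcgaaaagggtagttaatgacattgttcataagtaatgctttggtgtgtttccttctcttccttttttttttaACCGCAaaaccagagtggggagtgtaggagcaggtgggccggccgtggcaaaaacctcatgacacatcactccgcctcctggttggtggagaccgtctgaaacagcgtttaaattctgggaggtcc
Ibsp: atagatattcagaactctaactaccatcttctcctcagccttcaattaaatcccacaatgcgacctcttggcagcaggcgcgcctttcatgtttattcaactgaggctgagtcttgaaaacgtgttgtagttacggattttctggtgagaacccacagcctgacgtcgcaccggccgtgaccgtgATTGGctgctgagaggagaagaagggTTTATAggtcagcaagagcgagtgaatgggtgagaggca
In the Ibsp window the inverted TATAAA match began at -39 and the inverted CCAAT match at -65. The window of Spp1 held 1 TATAAA match, at -204, and 1 inverted RUNX hexamer, ACCGCA, at -126. Among all promoters of the table, 12.9% held TATAAA and 34% held CCAAT in a window of this length. The matches describe the letters and were not tested against the RNA levels.

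Spp1 (Entrez gene 25353) stood at 1253.83, 1304.51 and 1248.5 TPM in the TNF-α group and at 1204.86, 1204.42 and 1149.71 TPM in the TNF-α+NFL group. Each TNF-α library lay above each TNF-α+NFL library, the 1 gene of the 7 whose groups did not overlap in normalized counts, where 16.8% of all tested genes did not (8.17% lower with NFL, as Spp1 was, and 8.66% higher, where none of the 7 stood). Normalized counts (CPM) of Spp1 averaged 965 ± 34.7 with TNF-α and 881 ± 20.3 with TNF-α+NFL (SD, n = 3 each). The log2 fold change was -0.13 (SE 0.039, 95% interval -0.22 to -0.046), at p = 0.0053 unadjusted and 0.21 adjusted by edgeR quasi-likelihood (exact permutation test, two-sided, p = 0.10). The difference missed the threshold. It passed it only without TNF-α replicate 1, at a log2 fold change of -0.16 and an adjusted p of 0.0022, a fit that called 460 higher and 470 lower genes in all. In the other 5 fits that left out 1 library, the adjusted p of Spp1 lay between 0.37 and 0.60.

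Ibsp (Entrez gene 24477) had 13, 3 and 8 counts in the TNF-α group and 3, 8 and 6 in the TNF-α+NFL group. The groups overlapped. The sums over 3 libraries were 24 and 17, a ratio of 0.708 with an exact 95% interval of 0.357 to 1.37 that covers counting error only, so a difference was not detectable at this depth.

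**Figure D3:**
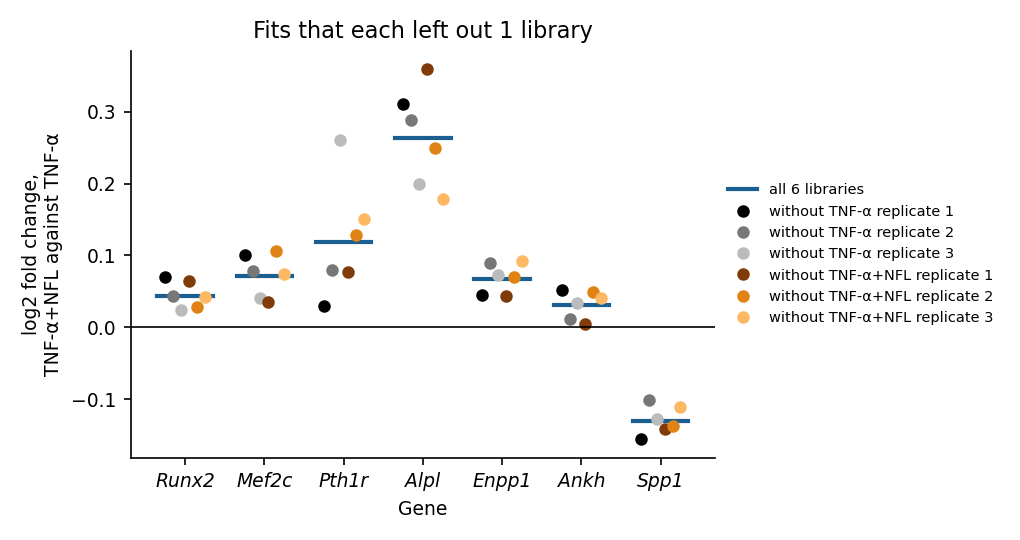
Log2 fold change of TNF-α+NFL against TNF-α for the 7 tested genes in the 6 fits that each left out 1 library (points) and with all 6 libraries (lines). The sign was the same in each of these fits, and the widest movement was that of Pth1r, from 0.029 to 0.26, and of Alpl, from 0.18 to 0.36.

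Other genes of the same course were followed in 4 lists by role, written from general knowledge with earlier results of these data known. The counts of these lists are therefore descriptions and no independent support. Of 72 genes measured, 58 were tested: 2 were higher and 1 was lower with NFL past the adjusted threshold of 0.05 in edgeR, where 0.408% and 0.204% of all tested genes were. Their median log2 fold change was 0.025, against -0.0035 over all tested genes. An unadjusted p under 0.05 in edgeR was reached by 9 of the 58, against 11.1% of all tested genes. In normalized counts the groups did not overlap for 7 of the 58 that were higher with NFL and 5 that were lower. Over all tested genes these shares were 8.66% and 8.17%.

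Of the 24 other regulators of transcription, 20 were tested and 1 changed. Zbtb16, a zinc finger factor that promotes bone differentiation and responds to glucocorticoids, was at 3.29, 2.78 and 2.60 TPM in the TNF-α group and at 3.81, 3.96 and 4.57 TPM in the TNF-α+NFL group. Each TNF-α+NFL library was above each TNF-α library. Zbtb16 rose by 0.47 on the log2 scale (SE 0.091, edgeR quasi-likelihood adjusted p = 0.036). When each library was left out in turn, it passed 0.05 only without TNF-α replicate 1, and it did not pass with limma on log2(FPKM + 1) or log2(TPM + 1) (adjusted p = 0.25 and 0.20). Cbfb, the partner subunit of RUNX proteins, had a log2 fold change of 0.029 (95% interval -0.068 to 0.13), and Hdac4, which restrains RUNX2 and MEF2C, of 0.096 (95% interval -0.073 to 0.27). The median of the list was 0.028.

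Of the 16 genes of the hedgehog and parathyroid hormone-related protein loop, 12 were tested and none passed 0.05 adjusted in edgeR (0 with limma-voom, 0 of the 8 with an adjusted p in DESeq2). Gas1 alone was at an unadjusted p under 0.05, against 11.1% of all tested genes. In normalized counts 2 of the 12, both lower with NFL, did not overlap between the groups, where 8.17% of all tested genes were lower without overlap. The targets that report hedgehog activity were low. Ptch1, the hedgehog receptor and target, was at 1.80 ± 0.587 TPM with TNF-α and 1.76 ± 0.156 TPM with TNF-α+NFL (SD, n = 3 each), and Gli1, a target that encodes a hedgehog effector, had 1 to 3 counts per library.

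Of the 15 other enzymes and transporters of mineralization, 13 were tested and none passed 0.05 adjusted in edgeR (0 with limma-voom, 0 of the 8 with an adjusted p in DESeq2). Anxa2 alone was at an unadjusted p under 0.05, against 11.1% of all tested genes. It was lower with NFL, at a log2 fold change of -0.14, and its groups did not overlap. Slc20a1, a phosphate transporter, was at 163.03 to 168.66 TPM in the TNF-α group and at 172.95 to 180.28 TPM in the TNF-α+NFL group. These ranges did not overlap, as for 16.6% of all tested genes in TPM. The log2 fold change was 0.052 (95% interval -0.026 to 0.13, edgeR quasi-likelihood adjusted p = 0.66). Nt5e, which makes adenosine outside the cell, had a log2 fold change of 0.058 (95% interval -0.061 to 0.18). Phospho1, a phosphatase of matrix vesicles, had one of -0.095 (95% interval -0.33 to 0.14). At 5.61 to 7.99 TPM, Phospho1 stood above Alpl in each library.

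Of the 17 measured genes of hypertrophic and bone matrix, 13 were tested, 1 rose and 1 fell. At an unadjusted p under 0.05 there were 6 of the 13, against 11.1% of all tested genes: Mmp13, Tnfrsf11b and Mgp, described below, and Sparc, Postn and Bmp6. The log2 fold changes of these last 3, a collagen-binding matrix protein, a matrix protein of periosteum and a bone morphogenetic protein, were 0.089, 0.14 and 0.18, with adjusted p-values of 0.38, 0.22 and 0.42 in edgeR. Mmp13, the collagenase of hypertrophic and osteoarthritic cartilage, was at 260.73, 263.28 and 229.41 TPM in the TNF-α group and at 213.18, 199.01 and 211.04 TPM in the TNF-α+NFL group. Each TNF-α+NFL library was below each TNF-α library, and Mmp13 fell by 0.31 on the log2 scale (SE 0.050, edgeR quasi-likelihood adjusted p = 0.017). It passed 0.05 in 1 of the 6 fits that left out 1 library, that without TNF-α replicate 3, and not with limma on log2(FPKM + 1) or log2(TPM + 1) (adjusted p = 0.16 and 0.12, at log2 fold changes of -0.30 and -0.27).

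Tnfrsf11b, which encodes osteoprotegerin, the decoy receptor that holds back osteoclasts, was at 104.75, 99.39 and 110.4 TPM in the TNF-α group and at 130.2, 133.02 and 132.45 TPM in the TNF-α+NFL group, with no overlap. Tnfrsf11b rose by 0.30 on the log2 scale (SE 0.046, edgeR quasi-likelihood adjusted p = 0.010) and passed 0.05 when TNF-α replicate 1 or TNF-α replicate 3 was left out, but in none of the other 4 fits that left out 1 library, and not with limma on log2(FPKM + 1) (adjusted p = 0.095). Mgp, an inhibitor of cartilage calcification, was the most abundant gene of the list, at 12503 to 13685 TPM in the TNF-α group and 14190 to 14936 TPM in the TNF-α+NFL group. The groups did not overlap, and the log2 fold change of Mgp was 0.14 (95% interval 0.041 to 0.25, edgeR quasi-likelihood adjusted p = 0.25). Col10a1, with 6 to 14 counts per library, had a log2 fold change of 0.26 (95% interval -0.62 to 1.13), an interval that holds a 2-fold rise.

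**Figure D4:**
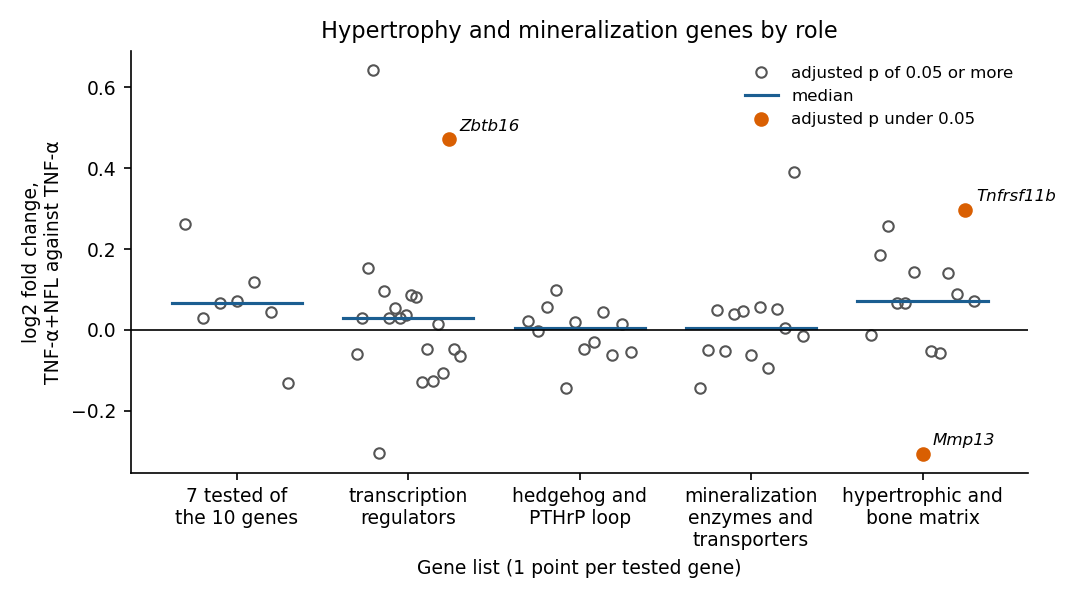
Log2 fold change of TNF-α+NFL against TNF-α for the tested genes of each list, 1 point per gene, with filled points for an adjusted p under 0.05 and a line at the median. Filled points are Zbtb16 (0.47), Tnfrsf11b (0.30) and Mmp13 (-0.31), and none of the 7 tested genes at the left is filled.

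Markers of other cells that the cultures could hold were compared beside these results. Of all tested genes, 11.1% were at an unadjusted p under 0.05 in edgeR. Groups did not overlap in normalized counts for 16.8% of all tested genes (8.66% higher and 8.17% lower with NFL). Of 7 measured markers of osteoblasts and osteocytes, 3 were tested and none passed 0.05 adjusted in edgeR or limma-voom (1, Omd, at an unadjusted p under 0.05, with a log2 fold change of 0.24), and Bglap (osteocalcin) had 1 to 8 counts per library. Their summed TPM was 12.53 to 13.92 with TNF-α and 14.37 to 16.82 with TNF-α+NFL, and most of it was Omd, whose groups overlapped in normalized counts. On log2(TPM + 1) the median difference of all tested genes was 0.0245, against -0.0035 in normalized counts. Of 4 measured osteoclast markers, 2 were tested and none passed in edgeR or limma-voom. Acp5 lay at 9.98 to 12.48 TPM, with a log2 fold change of -0.024. Ctsk, a protease that fibroblasts also make, had one of 0.14 (95% interval 0.012 to 0.27, the 1 of them at an unadjusted p under 0.05) and did not overlap between the groups. The summed TPM of the 4 was 77.55 to 82.77 with TNF-α and 84.31 to 96.41 with TNF-α+NFL, and most of it was Ctsk. Of the 6 synovial markers, 5 were tested, with a median log2 fold change of 0.095, 3 above 0 and 2 below. Only Pdpn passed and fell, by 0.20 on the log2 scale (edgeR quasi-likelihood adjusted p = 0.030), which passed without TNF-α replicate 1 only among the 6 fits that left out 1 library and did not pass with limma on log2(FPKM + 1) or log2(TPM + 1) (adjusted p = 0.17 for both). Prg4 had a log2 fold change of -0.14 (95% interval -0.49 to 0.22), and Thy1, Cd55 and Htra4 had ones of 0.095, 0.11 and 0.15. At an unadjusted p under 0.05 there were 2 of the 5, Pdpn and Thy1 (95% interval of Thy1 0.016 to 0.17). Thy1 and Htra4, both higher with NFL, and Pdpn, lower with NFL, did not overlap between the groups. None of the 14 tested cartilage genes passed in edgeR. Their log2 fold changes were above 0 for 11 and below 0 for 3, with 3 whose groups did not overlap, all higher with NFL (8.66% of all tested genes), and 2, Col2a1 and Col11a1, were at an unadjusted p under 0.05 (11.1% of all tested genes). Col2a1 had a log2 fold change of 0.23 (95% interval 0.075 to 0.38, edgeR adjusted p = 0.22) and did not overlap between the groups. Col11a1, a minor collagen of cartilage, stood at an adjusted p of 0.052 in edgeR and was called by limma-voom and DESeq2, at a log2 fold change of 0.22 (95% interval 0.12 to 0.32). The median of the cartilage genes was 0.067. The summed TPM of the cartilage genes was 459.1 to 511.6 in the TNF-α group and 539.1 to 593.7 in the TNF-α+NFL group. Without Col11a1 the other 15 genes summed to 53.43 to 62.41 and 55.53 to 61.62, which overlapped. The 1 macrophage marker and 2 adipocyte markers tested did not pass in edgeR or limma-voom (0 at an unadjusted p under 0.05), and no endothelial marker was tested. The summed TPM of 5 macrophage markers was 36.46 to 45.21 and 33.9 to 43.04, nearly all Cd68, that of 6 endothelial markers (Pecam1 at 0 to 4 counts) was 0.23 to 0.41 and 0.16 to 0.32, and that of 6 adipocyte markers (Adipoq at 0 to 4 counts) was 32.07 to 32.72 and 33.13 to 37.71, nearly all Fabp4, whose groups overlapped in normalized counts, in the same order of groups. The part of these cells in the values above was not tested.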

How the data were processed

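Per the labels, libraries were made from poly(A) RNA and read as single-end 50-base reads on the BGISEQ-500 (the paper names the MGISEQ-2000). The submitters' processing notes name HISAT2 2.0.4, Bowtie2 2.2.5, RSEM 1.2.12 and Rnor_6.0. For each gene and library the authors deposited an estimated count without normalization, and FPKM and TPM values corrected for length and library. After rounding, the counts went into edgeR 4.0.16 (R 4.3.3) with its filterByExpr filter, TMM factors and the robust quasi-likelihood F test, and p-values were adjusted by Benjamini-Hochberg across 13250 genes. The SE is the fold change over the root of F. TPM gave the levels. The test was checked on simulated counts. Alternatives were other filters, DESeq2 1.42.0, limma 3.58.1 (voom, FPKM and TPM), a replicate block, removal of each library's trend with transcript length, and leaving out each library.

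The members and lists were chosen with earlier results of these data known. All 10 members, 12 genes of the 4 other lists, 9 markers and any listed gene past an adjusted p of 0.05 are named; Gas1, Anxa2, Sparc, Postn, Bmp6, Mepe, Dmp1, Omd, Ctsk, Thy1, Cd55, Htra4, Col11a1, Cd68 and Fabp4 were named after their values were seen. Sequences are RefSeq's for GRCr8, whose build differs from that of the files.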

Additional observations from a re-analysis of the deposited data

How the results depend on the processing

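None of the 7 tested genes changed direction in the 15 or 16 alternatives that gave each an adjusted p, and the 1 call among them was that of Spp1 without TNF-α replicate 1; over the fits that left out 1 library the number of them called lower ran from 0 to 1. Spp1 had an adjusted p of 0.082 with the DESeq2 Wald test and from 0.0022 to 0.60 over its alternatives. The log2 fold change of Ankh was 0.0043 without TNF-α+NFL replicate 1. Those of Runx2 and Mef2c were 0.0068 and 0.029 with the length trend removed. Without a filter on low counts, Sp7, Ihh and Ibsp had adjusted p-values of 0.55, 0.93 and 0.82. By mean TPM, Sp7 and Ihh exchanged ranks 9 and 10 without TNF-α replicate 3, and the ranks were otherwise the same without any 1 library and with FPKM.

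Over all tested genes, 54 were higher and 27 lower. These counts were 84 and 48 with no filter, 25 and 9 with the replicate block, 3 and 3 with limma on log2(FPKM + 1), 24 and 8 with limma on log2(TPM + 1) or log2(TPM + 0.1), 95 and 53 with the DESeq2 Wald test, 151 and 85 with the length trend removed and 100 and 64 at an adjusted p under 0.10. Leaving out 1 library gave 5 to 460 higher and 0 to 470 lower. Of the 4 other lists, against 2 higher and 1 lower, there were 1 and 0 with the replicate block and with limma on TPM at either pseudocount, 0 and 0 with limma on log2(FPKM + 1) and 1 higher with the DESeq2 Wald test, which gave Zbtb16 no adjusted p, and leaving out 1 library gave 0 to 5 higher and 0 to 1 lower. The cause was not tested. With the replicate block, Zbtb16, Mmp13 and Pdpn had adjusted p-values of 0.083, 0.055 and 0.090, at log2 fold changes of 0.47, -0.31 and -0.20, and Tnfrsf11b one of 0.021. Deviations of same-numbered samples correlated at 0.0302, -0.0237 and 0.1 across genes. Differently numbered samples were not correlated for comparison, so these values cannot decide whether the replicate numbers pair the samples.

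Depth limited Alpl, Ibsp, Sp7, Ihh and Col10a1, with at most 22 counts in a library.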

Other observations

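Each of the 5 measured macrophage markers stood highest in TNF-α replicate 1, Cd68 (43.35 TPM, against at most 42.86) and Aif1 (0.40, against at most 0.37) by little. These genes were named after their values were seen. Csf1r had 40 counts in TNF-α replicate 1, at 1.12 TPM, and 0.03 to 0.18 TPM in the other 5 libraries. Ptprc was at 0.16 TPM there and at 0 to 0.04 in the others, and Itgam at 0.18 and at 0 to 0.05. TNF-α replicate 1 is also the library whose removal brought Spp1 past an adjusted p of 0.05 (edgeR), in a fit that called 460 higher and 470 lower genes in all. In normalized counts (CPM), Spp1 itself was lowest of its group there, at 929.7 against 999.1 and 965.2. The same library lay at 1 end of the first principal component (-21.2), so it stood apart in more than these markers. Whether these markers bear on Spp1 was not tested.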
